A study of Homo sapiens with 9 samples.

Results

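IGFBP3, the most abundant carrier of insulin-like growth factors in blood, was described here with its axis: the binding proteins IGFBP1 to IGFBP7, the receptors IGF1R and IGF2R, and the ligand IGF2. The genes were chosen by name, and IGFBP3 was put first because its measured increase after SPTLC123 siRNA was among the largest of the study. Every probe set (a group of short probes that reports 1 transcript region) that the platform annotation gives to just 1 of these 10 symbols was taken. This found 24 of 54613 probe sets, for 9 of the 10 genes (of 19775 genes with a probe set of their own): 6 for IGFBP5, 5 for IGF1R, 3 each for IGFBP7 and IGF2R, 2 each for IGFBP1 and IGFBP3, and 1 each for IGFBP2, IGFBP4 and IGFBP6. IGF2 had no probe set of its own, since all 3 that name it also name the read-through gene INS-IGF2, and it was not analysed here.

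Huh7, an established human hepatocarcinoma line, was transfected with siRNA at 20 nM in 3 groups of 3 cultures, given in the labels as biological replicates and measured on 9 single-colour Affymetrix arrays. The SPTLC123 group received siRNA against SPTLC1, SPTLC2 and SPTLC3, subunits of serine palmitoyltransferase, which starts ceramide synthesis. The DEGS1 group received siRNA against DEGS1, the desaturase that makes ceramide from dihydroceramide, and the scramble group a non-targeting siRNA. All 3 groups were grown in medium with 10% serum; the labels place them at 72 h after transfection, while the protocol describes a change at 72 h to medium with 1% serum and albumin and a harvest 24 h later, so the culture time is known only as one of these. All cells came from 1 line, and how many siRNA sequences were used for each gene is not given in the sources used here.

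Insulin-like growth factors are peptide hormones that act through IGF1R, a receptor tyrosine kinase, while IGF2R carries IGF2 to lysosomes for breakdown. In extracellular fluid most of the hormone is held by IGFBP1 to IGFBP6, which prolong its life and can keep it from the receptor, and proteases that cut the binding proteins set it free. The liver is the main source of circulating IGF1, and IGFBP3 also acts on cells without its ligand.

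The targeted genes were low in the groups labelled for them. SPTLC1 averaged 8.67 ± 0.12 in SPTLC123 and 10.94 ± 0.10 in scramble, and DEGS1 averaged 5.00 ± 0.19 in DEGS1 and 8.73 ± 0.13 in scramble (log2 normalised intensity, SD, n = 3 each). SPTLC2 averaged 5.07 ± 0.18 in SPTLC123 and 6.12 ± 0.14 in scramble, the smallest of these differences, at -1.05. The third subunit, SPTLC3, was not analysed here. All 9 hepatocyte and hepatocarcinoma markers with a probe set of their own, albumin and α-fetoprotein among them, were brighter than the median probe set, at 4.86. Of the markers of other cells, none of 4 for leukocytes, 2 of 7 for stellate cells and fibroblasts, 2 of 5 for endothelium and 4 of 4 for cholangiocytes did so. In 3 arrays the 5′ end of the actin control was weak beside its 3′ end: the 3′ minus 5′ difference was 1.15 to 1.31 on the log2 scale in SPTLC123 replicate 3 and in DEGS1 replicates 2 and 3, against 0.40 to 0.56 in the other 6 arrays. These 3 arrays are called the arrays with a weak 5′ control below.

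The IGFBP3 gene lies on the minus strand at chr7:45912245-45921272 (GRCh38.p14), and its promoter is shown because this is the member whose transcript level differed among all 3 groups. The sequence covers the 250 bases before the annotated start, chr7:45921273-45921522 on the minus strand, 5′ to 3′, from RefSeq. The capitals mark matches to GGGCGG, the GC box, and to TATANA, the core of a TATA box, on either strand.

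IGFBP3 promoter: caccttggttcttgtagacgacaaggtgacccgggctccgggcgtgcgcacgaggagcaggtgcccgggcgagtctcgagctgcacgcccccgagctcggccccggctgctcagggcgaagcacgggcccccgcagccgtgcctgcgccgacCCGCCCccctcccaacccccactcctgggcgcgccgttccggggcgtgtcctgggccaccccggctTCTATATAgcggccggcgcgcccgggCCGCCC

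The TATANA matches overlap each other 32 to 25 bases before the start, and GGGCGG was found on the reverse strand 98 to 93 and 6 to 1 bases before it. Of all 35095 promoters of this length in the RefSeq table, 17.7% held TATANA and 42.6% held GGGCGG on either strand. Of the 7 member genes with a promoter entry, TATANA was found in 2, IGFBP3 and IGFBP4, and GGGCGG in 6. CAGAC, the letters of the SMAD element, and AGGTCA, the half-site of nuclear receptors such as VDR, were not among these 250 letters of IGFBP3; they were found in 38.0% and 12.1% of all promoters. The IGFBP3 window was 76.0% G and C, against a median of 58.0%. These matches describe letters and not binding.

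IGFBP3 was high after SPTLC123 siRNA, intermediate after DEGS1 siRNA and low after scramble siRNA, in every array. On its brighter probe set the normalised intensity was 747.54, 576.54 and 657.85 in the SPTLC123 arrays. It was 150.18, 148.8 and 160.52 in the DEGS1 arrays and 73.97, 47.09 and 69.81 in the scramble arrays. The lowest SPTLC123 array lay above the highest DEGS1 array, and the lowest DEGS1 array above the highest scramble array. On the log2 scale the levels averaged 9.36 ± 0.19 in SPTLC123, 7.26 ± 0.06 in DEGS1 and 5.96 ± 0.35 in scramble (SD, n = 3 each). The scramble group spread the most, through replicate 2, at 5.56 beside 6.21 and 6.13.

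The SPTLC123 minus scramble difference was 3.40 ± 0.17 (SE of the limma fit), a ratio of 10.5, with a 95% interval of 3.01 to 3.78. These values chose IGFBP3, so they are a description and no test is given. Taking the brightest probe set of each gene, and the 12856 genes whose higher group mean exceeded that median, this was the largest increase. The next were SI, the intestinal sugar-digesting enzyme sucrase-isomaltase, at 3.13 and TDO2, which opens the tryptophan breakdown pathway, at 2.29. The DEGS1 minus SPTLC123 difference of IGFBP3 was -2.10 ± 0.17, the 10th largest decrease of 12789 genes, between DPY19L1 at -2.10 and AKR1C2 at -2.08.

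DEGS1 siRNA did not choose the gene, and there the difference can be tested, although it rests on the same 3 scramble arrays as the comparison that did. IGFBP3 rose by 1.29 ± 0.17 in DEGS1 against scramble, a ratio of 2.45, with a 95% interval of 0.91 to 1.68 and an adjusted p of 0.00602 (limma, Benjamini-Hochberg over all 54613 probe sets). Among 12892 genes this was the 31st largest increase, between IGSF9 and PCDHGA4, both at 1.29. With each array left out in turn the change was 1.09 to 1.42 and stayed called. In the 6 arrays without a weak 5′ control, where DEGS1 has 1 array that is assumed to vary like the others, it was 1.27 with an adjusted p of 0.120.

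The second IGFBP3 probe set gave the same order of groups. Its intensity was 560, 455.37 and 388.81 in SPTLC123, 123.05, 82.84 and 93.48 in DEGS1, and 58.72, 51.88 and 50.4 in scramble. The groups again did not overlap. Its log2 level averaged 8.85 ± 0.26 in SPTLC123, 6.62 ± 0.29 in DEGS1 and 5.74 ± 0.12 in scramble (SD, n = 3 each). It was 3.11 ± 0.17 higher in SPTLC123 than in scramble, a ratio of 8.64. In DEGS1 against scramble it rose by 0.88 ± 0.17, a ratio of 1.84, with an adjusted p of 0.0287 (limma, Benjamini-Hochberg). That call was lost when SPTLC123 replicate 2, DEGS1 replicate 3 or any 1 scramble array was left out, with adjusted p between 0.0547 and 0.111 (limma), and it was kept in the 6 arrays without a weak 5′ control, at 1.20 with an adjusted p of 0.0348 (limma). Both probe sets read the same RNA of 1 gene, so they are no independent replicates; over the 9 arrays their levels correlated at r = 0.98.

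**Figure D1:**
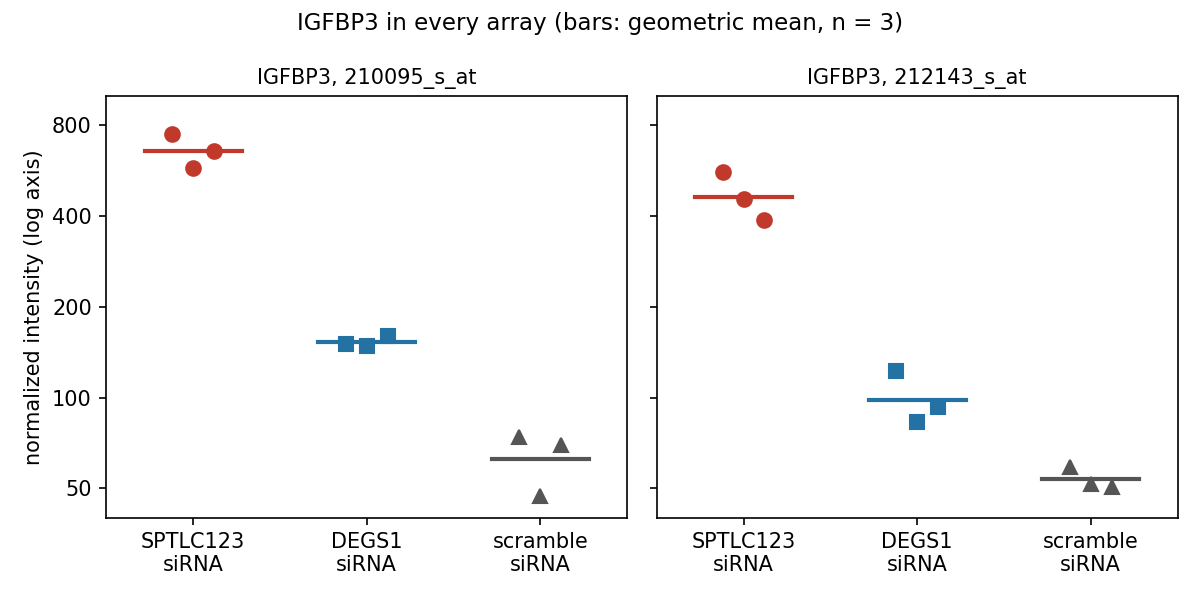
Normalised intensity, on a log axis, of both IGFBP3 probe sets in each array of the SPTLC123, DEGS1 and scramble groups. Points are arrays and bars are geometric means (n = 3). The SPTLC123 arrays lie at 576.54 to 747.54 and 388.81 to 560, above every DEGS1 array. The DEGS1 arrays, at 148.8 to 160.52 and 82.84 to 123.05, lie above every scramble array.

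The summed level of the hepatocyte markers was ordered opposite to IGFBP3, and none of the other marker lists had the order of IGFBP3 in its sum. The log2 of the summed intensity of the 9 hepatocyte markers was 16.29 to 16.39 in SPTLC123, 16.48 to 16.58 in DEGS1 and 16.60 to 16.68 in scramble, lowest where IGFBP3 was highest. Among them APOA1 averaged 12.90 in SPTLC123, 13.57 in DEGS1 and 13.35 in scramble. FGB averaged 10.8, 11.6 and 11.3 in the same groups, so both were highest in DEGS1. In SPTLC123 against scramble TTR, APOA1, GPC3 and TF were called lower (adjusted p 0.0172 to 0.0401, limma), and no hepatocyte marker was called higher. These members were named after their values were seen. By the same measure the 4 cholangiocyte markers gave 11.77 to 12.32 in SPTLC123, 11.79 to 12.33 in DEGS1 and 11.49 to 11.81 in scramble. Single members differed from that sum: EPCAM, an epithelial adhesion protein, averaged 10.89 in SPTLC123, 10.61 in DEGS1 and 10.32 in scramble, and the keratin KRT19 averaged 8.10, 7.56 and 7.35 in the same groups, both in the order of IGFBP3. In SPTLC123 against scramble EPCAM rose by 0.57 ± 0.11 (adjusted p = 0.0202) and KRT19 by 0.75 ± 0.17 (adjusted p = 0.0420, both limma), while SOX9 and KRT7 were not called; these markers were named after their values were seen. The 7 stellate and fibroblast markers summed to 8.18 to 8.43 in SPTLC123, 8.13 to 8.41 in DEGS1 and 8.40 to 8.47 in scramble. The 5 endothelial markers summed to 8.06 to 8.17 in SPTLC123, 7.74 to 7.99 in DEGS1 and 8.05 to 8.18 in scramble, and the 4 leukocyte markers to 6.41 to 6.52, 6.39 to 6.58 and 6.48 to 6.87 in the same groups. The part of these differences in the IGFBP3 result was not tested, and in RNA of whole cultures a change in the number of cells of a kind and a change in RNA per cell cannot be told apart.

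None of the 3 measured genes on each side of IGFBP3 on chromosome 7 was called against scramble. Of all genes 2.53% to 3.47% were called in each direction in these comparisons, so no call among so few lies near that share. IGFBP1, the nearest gene, lies at chr7:45888488-45893660, with 18584 bases between them. For IGFBP1, the adenylate cyclase gene ADCY1, the pseudogene SEPTIN7P2, the focal adhesion gene TNS3, LINC00525 and PKD1L1, which were the 3 nearest genes on each side with a probe set of their own, the lowest adjusted p was 0.448 in SPTLC123 against scramble and 0.139 in DEGS1 against scramble (limma, Benjamini-Hochberg). TNS3, the brightest of these, differed by 0.02 ± 0.10 in SPTLC123 and 0.17 ± 0.10 in DEGS1 from scramble. It is the nearest of them at higher coordinates, yet lies as far off as chr7:47275154-47582586. ADCY1, LINC00525 and PKD1L1 had means below the median of all probe sets and could show a change less well.

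No other member probe set passed the test in any comparison. In SPTLC123 against scramble 0 of the 22 probe sets of the other 8 genes were called at an adjusted p under 0.05 (limma), where 4.52% of all probe sets were, and 0 had an unadjusted p under 0.05, against 16.2% of all. In DEGS1 against scramble 2 of the 24 member probe sets were called, both of IGFBP3, where 3.42% of all were; 3 of the other 22 had an unadjusted p under 0.05, against 19.4% of all. In DEGS1 against SPTLC123 0 of the 22 were called, where 3.69% of all were, and 0 had an unadjusted p under 0.05, against 17.7% of all. With 22 probe sets, a share of 4.52% is about 1 call.

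The differences of these 22 were small. Their median absolute difference was 0.11 in SPTLC123 against scramble, beside 0.12 over all probe sets, and 0.09 in DEGS1 against scramble, beside 0.13 over all. They ran from -0.47 to 0.36 in SPTLC123 and from -0.99 to 0.78 in DEGS1 against scramble. For 20 of the 22 in SPTLC123 against scramble and 19 in DEGS1 against scramble the 95% interval lay within 1 log2 unit of 0 on either side. The same held for 50453 of all 54613 probe sets in SPTLC123 and 48696 in DEGS1, so the members did not stand out in this. Just 11 of the 22 had a mean above the median of all probe sets. For the dimmer ones such an interval bounds the measured level more than the transcript. The groups did not overlap for 2 of the 22 in SPTLC123 against scramble, where they did not for 22.4% of all probe sets, and for 6 in DEGS1 against scramble, where 21.3% did not. In DEGS1 against SPTLC123 1 of the 22 did not overlap, against 19.8% of all.

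**Figure D2:**
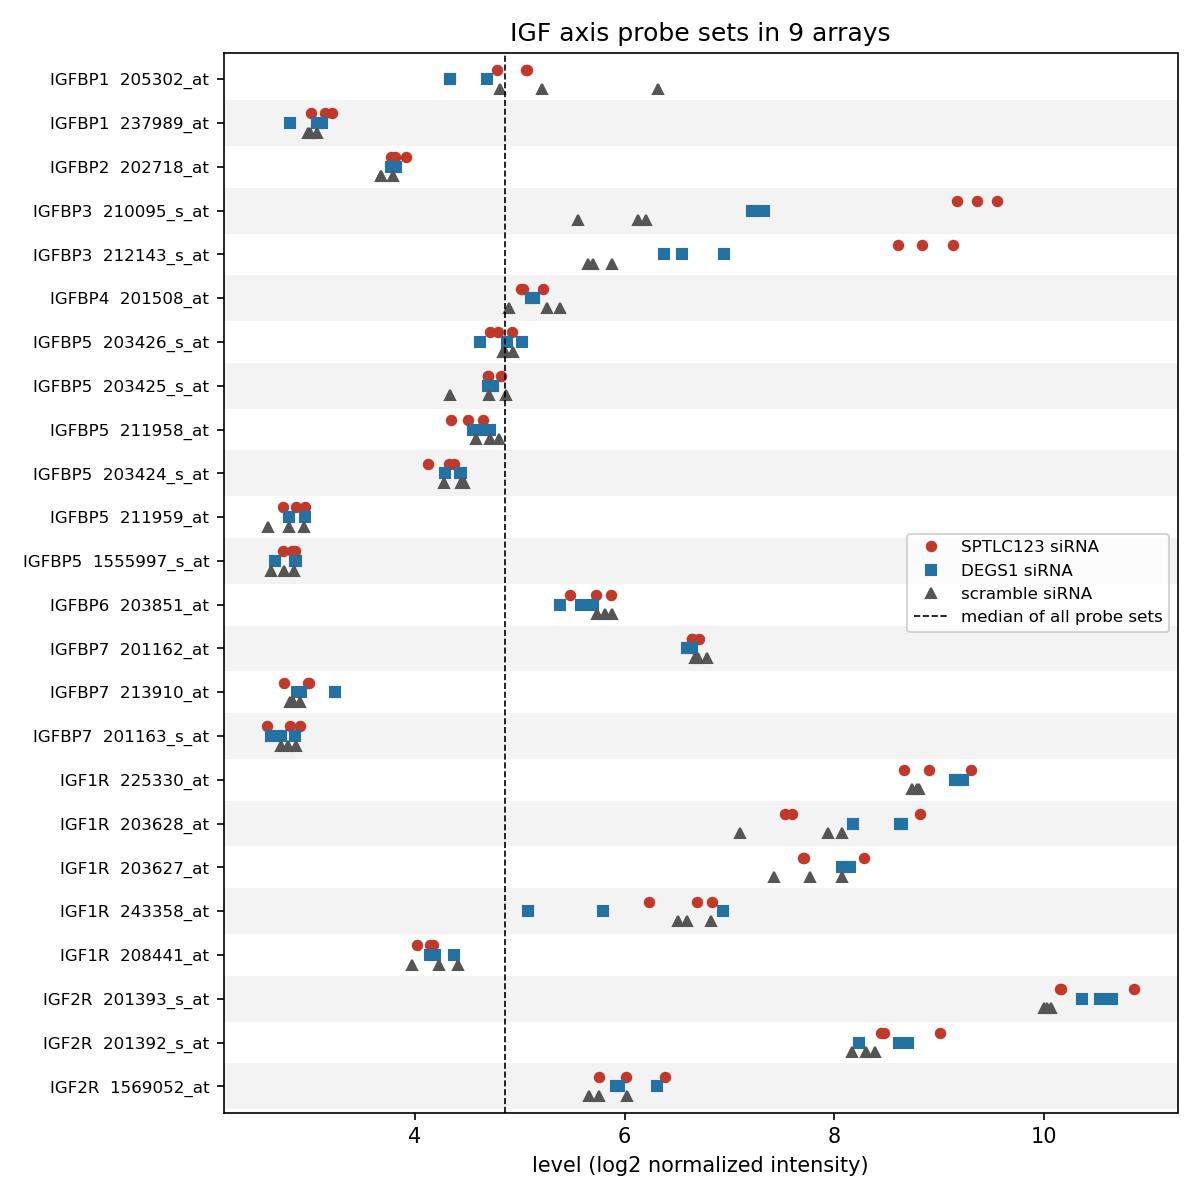
Log2 normalised intensity of the 24 member probe sets in the 9 arrays, with SPTLC123 as circles, DEGS1 as squares and scramble as triangles; the dashed line is the median of all probe sets, 4.86. The IGFBP3 probe sets are the pair whose 3 groups stand fully apart.

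**Figure D3:**
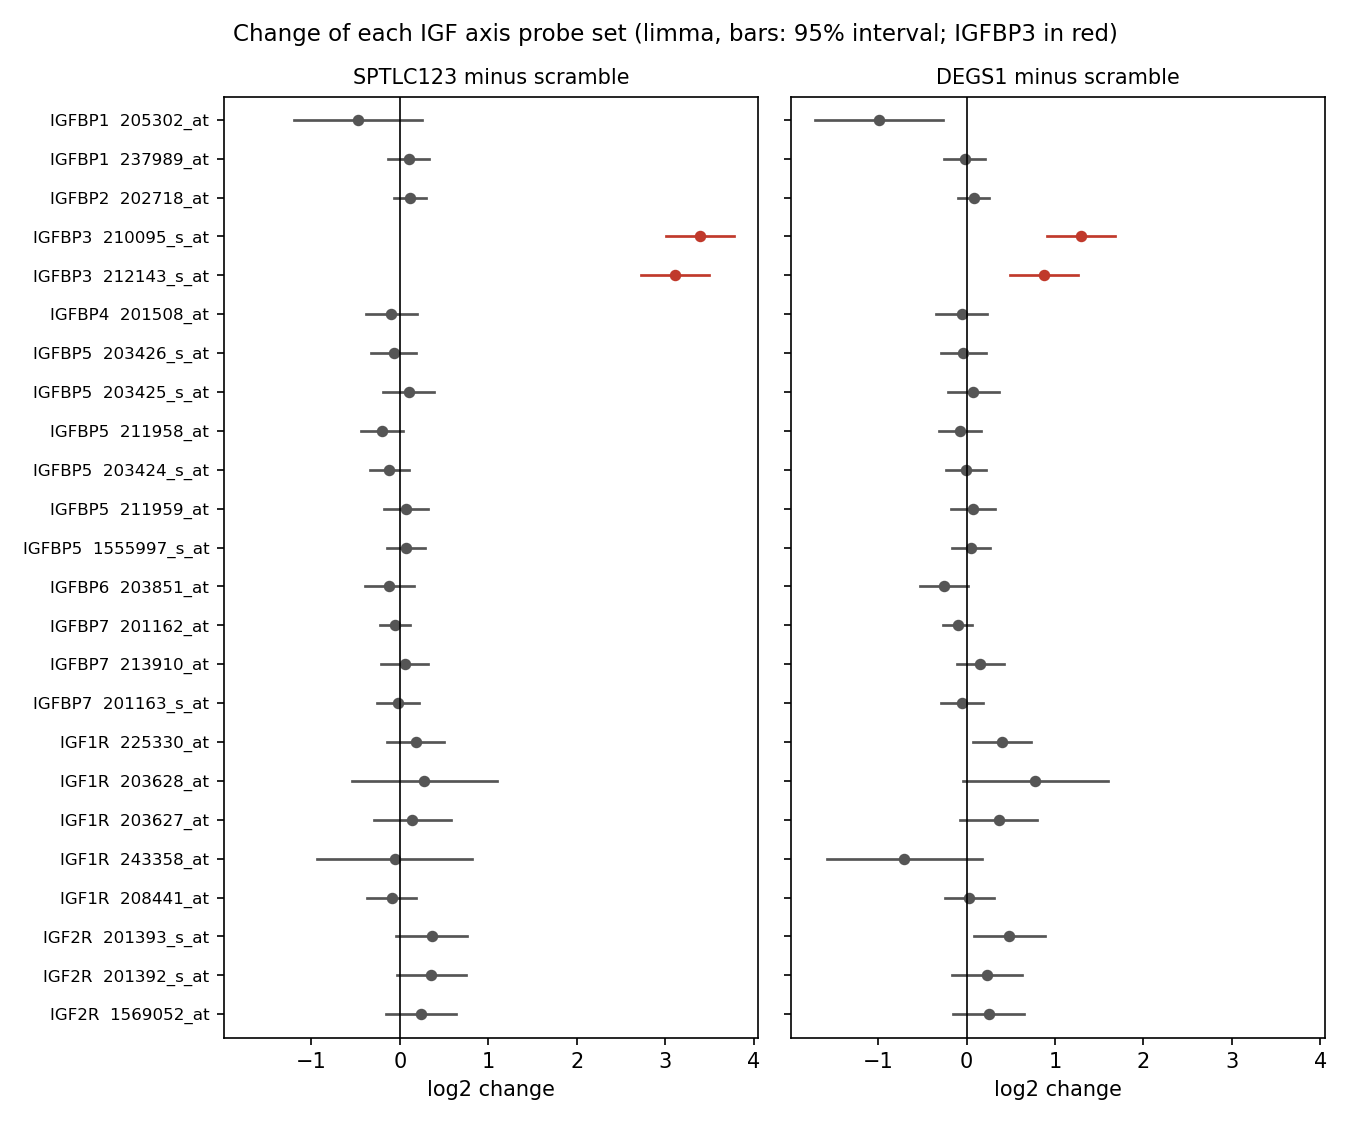
Log2 difference of each member probe set in SPTLC123 minus scramble and DEGS1 minus scramble, with the 95% interval of the limma fit. IGFBP3 lies at 3.40 and 3.11 in SPTLC123 and at 1.29 and 0.88 in DEGS1, while the other 22 probe sets lie between -0.99 and 0.78.

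Among the binding proteins IGFBP1 is the one that insulin represses in liver. On its brighter probe set it read 4.79, 5.07 and 5.06 in SPTLC123, 4.69, 4.34 and 4.34 in DEGS1, and 4.81, 6.32 and 5.21 in scramble. Scramble replicate 2 was the highest array, and every DEGS1 array lay below every scramble array. The DEGS1 minus scramble difference was -0.99 ± 0.32, with a 95% interval of -1.71 to -0.26 and an adjusted p of 0.139 (limma). Without scramble replicate 2 it was -0.55 with an adjusted p of 0.186 (limma). In SPTLC123 against scramble it was -0.47 ± 0.32 with an adjusted p of 0.558 (limma), and its dimmer probe set stayed between 2.81 and 3.21 in all arrays, well below the median of all probe sets.

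IGFBP2, a binding protein made by fetal liver and many tumours, was dim, at 3.68 to 3.91 in all arrays, with a SPTLC123 minus scramble difference of 0.11 ± 0.08. IGFBP5, which binds bone mineral and matrix and lies 7668 bases from IGFBP2 on chromosome 2, had 6 probe sets at 2.60 to 5.03, with all 6 means below the median of all probe sets. At such levels an array compresses a fold change, so the small differences of IGFBP2 and IGFBP5 bound a change less well than those of brighter probe sets. The same limit applies to the dimmer probe sets of IGFBP1 and IGFBP7 and the dimmest of IGF1R. It also applies to the brighter IGFBP1 probe set in DEGS1, where every array lay below that median.

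IGFBP4, an inhibitory binding protein cut by the protease PAPPA, averaged 5.09 ± 0.12 in SPTLC123, 5.13 ± 0.02 in DEGS1 and 5.18 ± 0.26 in scramble. IGFBP6, which prefers IGF2, read 5.59, 5.38 and 5.70 in DEGS1 and 5.81, 5.74 and 5.88 in scramble. The DEGS1 arrays lay below the scramble arrays, by 0.26 ± 0.12 on average, but the adjusted p was 0.289 (limma). IGFBP7, a low-affinity relative found in vessel walls and matrix, averaged 6.67 ± 0.04 in SPTLC123, 6.62 ± 0.02 in DEGS1 and 6.72 ± 0.06 in scramble on its brightest probe set; its DEGS1 minus scramble difference was -0.10 ± 0.07 and was not called. Its other 2 probe sets lay between 2.59 and 3.24.

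The signalling receptor IGF1R gave different answers on its 5 probe sets. On the brightest it read 8.66, 8.90 and 9.30 in SPTLC123, 9.15, 9.23 and 9.15 in DEGS1, and 8.78, 8.74 and 8.80 in scramble. All DEGS1 arrays were above all scramble arrays, by 0.40 ± 0.14 on average (adjusted p = 0.173, limma), and SPTLC123 replicate 3 was the highest of all. On the fourth by brightness the DEGS1 minus scramble difference had the opposite sign, -0.70 ± 0.39 (adjusted p = 0.353, limma), from 6.93, 5.80 and 5.08 in DEGS1 and 6.59, 6.51 and 6.83 in scramble. DEGS1 replicates 2 and 3 and SPTLC123 replicate 3, at 6.23, were the 3 lowest arrays there.

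Those 3 are the arrays with a weak 5′ control. On the brightest IGF1R probe set they read 9.15 to 9.30, against 8.66 to just below 9.15 in the other 6 arrays, and on the second 8.63 to 8.81 against 7.10 to 8.17, while on the fourth they read 5.08 to 6.23 against 6.51 to 6.93. In the 6 other arrays alone the fourth was higher in DEGS1 than in scramble, by 0.29, and it was called, at -1.20 with an adjusted p of 0.0111 (limma), when DEGS1 replicate 1 was left out and both remaining DEGS1 arrays had a weak 5′ control. With the actin 3′ minus 5′ difference as a covariate, the DEGS1 minus scramble difference was 0.25 on the brightest IGF1R probe set (adjusted p = 0.513) and -0.05 on the fourth (adjusted p = 0.967, both limma). In DEGS1 against scramble the second probe set differed by 0.78 ± 0.36 and the third by 0.36 ± 0.19, neither called, and the dimmest by 0.03 ± 0.12.

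IGF2R, the lysosomal sorting receptor for IGF2 and mannose 6-phosphate, had 3 probe sets, all positive in both comparisons against scramble and none called. On the brightest it read 10.15, 10.16 and 10.86 in SPTLC123, 10.36, 10.64 and 10.53 in DEGS1, and 10.02, 10.00 and 10.07 in scramble. All 6 arrays with a targeting siRNA were above the 3 scramble arrays. The difference was 0.36 ± 0.18 in SPTLC123 (adjusted p = 0.376) and 0.48 ± 0.18 in DEGS1 (adjusted p = 0.185, both limma). The 3 arrays with a weak 5′ control were again apart, at 10.53 to 10.86 against 10.00 to 10.36 in the other 6, and without SPTLC123 replicate 3 the DEGS1 difference was called, with an adjusted p of 0.0326 (limma). With the actin difference as a covariate it was 0.22 with an adjusted p of 0.575 (limma). On the second the differences were 0.36 ± 0.17 in SPTLC123 and 0.23 ± 0.17 in DEGS1, and on the third 0.24 ± 0.18 in SPTLC123 and 0.25 ± 0.18 in DEGS1.

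The 3 arrays with a weak 5′ control lay wholly above or below the other 6 for 4 of the 24 member probe sets, all of IGF1R or IGF2R. That is 16.7% of the members, and it held for 18.4% of all probe sets. IGFBP3 could not meet that count, because its groups lie too far apart. Within groups its second probe set was lowest in SPTLC123 replicate 3, at 8.60, and in DEGS1 replicates 2 and 3, at 6.37 and 6.55 beside 6.94 in DEGS1 replicate 1. With the actin difference as a covariate its DEGS1 minus scramble change was 1.14 with an adjusted p of 0.00148 (limma), and the brighter probe set was also called, with an adjusted p of 0.00649 (limma).

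Genes whose levels ran most like those of IGFBP3 were ranked by Pearson correlation with its brighter probe set over the 9 arrays. The ranking took the 726 genes with an SD of at least 0.5 and a highest group mean above the median of all probe sets. Since the 9 arrays form 3 groups, such a correlation mostly records an order of group means and is given without a test. Of the 726, 33 had r above 0.9. The first were MAP4K4, a stress-responsive kinase, at 0.991, the integrin subunit ITGB8 at 0.980, the monocarboxylate transporter family gene SLC16A9 at 0.978, the DNA methyltransferase DNMT3B at 0.978, the helicase-like gene ERCC6L2 at 0.970 and the salt-inducible kinase SIK1 at 0.967.

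All 6 had the group order of IGFBP3 over a smaller span. ITGB8 averaged 8.78 ± 0.12 in SPTLC123, 7.60 ± 0.09 in DEGS1 and 7.14 ± 0.07 in scramble, and DNMT3B 8.38 ± 0.20, 7.58 ± 0.17 and 6.92 ± 0.09 in the same groups (SD, n = 3 each). SLC16A9 averaged 8.28 ± 0.04 in SPTLC123, 7.47 ± 0.13 in DEGS1 and 6.63 ± 0.18 in scramble. Not every other probe set of these genes followed IGFBP3: the lowest r among them was 0.18 for MAP4K4, 0.06 for ITGB8, 0.08 for ERCC6L2 and -0.12 for SIK1, while SLC16A9 and DNMT3B had no other.

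**Figure D4:**
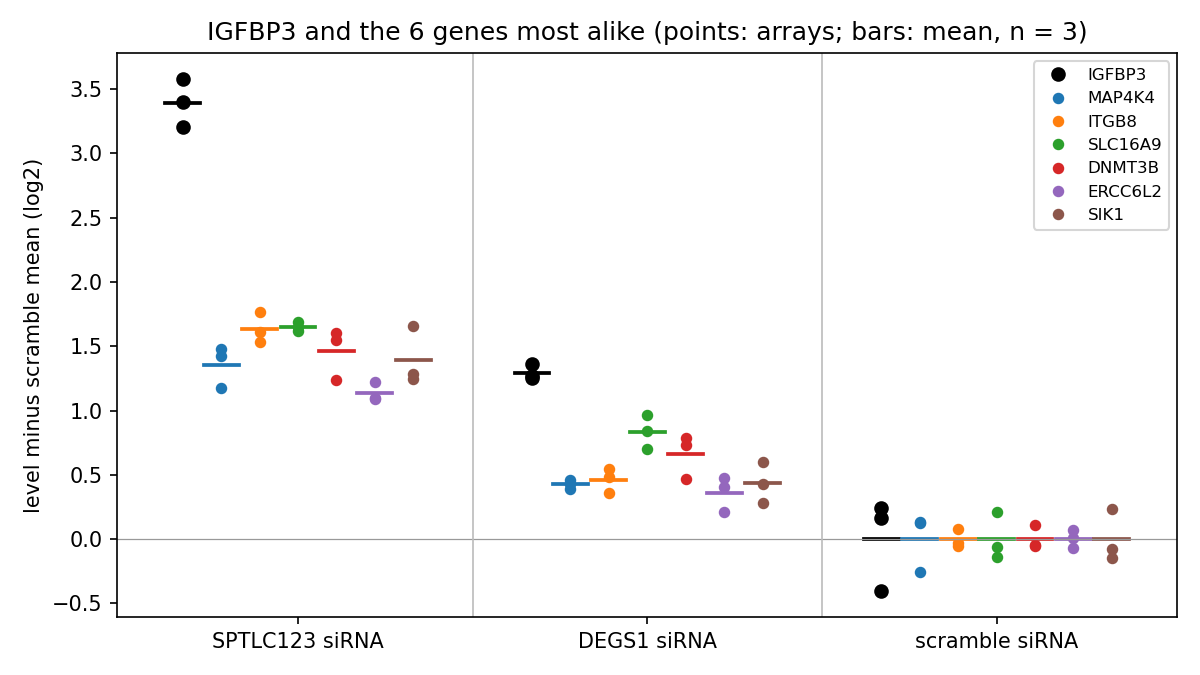
Log2 level of IGFBP3 and of the 6 genes most alike to it, each minus its own scramble mean, by group; points are arrays and bars are means (n = 3). IGFBP3 averages 3.40 in SPTLC123 and 1.29 in DEGS1, above each of the 6 in both groups.

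Genes around the binding proteins were described in 6 lists, which held 68 genes with a probe set of their own, each read by its brightest one. In SPTLC123 against scramble 4 of the 68 rose and 2 fell, where 3.47% of all 19775 genes rose and 2.95% fell by the same test (limma, adjusted p under 0.05). In DEGS1 against scramble 5 rose and 1 fell, where 2.63% of all rose and 2.53% fell, and in DEGS1 against SPTLC123 1 was higher and 1 lower, where 2.38% and 2.99% of all were. The median difference was -0.04 in SPTLC123 and -0.02 in DEGS1 against scramble, beside -0.03 and -0.01 over all genes. Most of these calls were lost under some other setting, as given with each gene.

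Among 12 known inputs to IGFBP3 transcription, 3 rose in SPTLC123 and 2 in DEGS1, and none fell against scramble. VDR, the vitamin D receptor, read 5.96, 5.99 and 6.02 in SPTLC123, 5.30, 5.34 and 5.24 in DEGS1, and 5.39, 5.10 and 5.07 in scramble. The SPTLC123 arrays stood above all others, while DEGS1 and scramble overlapped. VDR rose by 0.80 ± 0.10 in SPTLC123 against scramble (adjusted p = 0.00266, limma) and was called under all 17 other settings. Of its 3 other probe sets 1 was called in the same direction, and the rest ran the opposite way, uncalled. In DEGS1 its difference from scramble was 0.10 ± 0.10 (adjusted p = 0.623, limma), and the DEGS1 minus SPTLC123 difference was -0.70 ± 0.10 (adjusted p = 0.00631, limma). The last was -0.68 with an adjusted p of 0.169 in the 6 arrays without a weak 5′ control.

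SMAD3, a signal carrier of transforming growth factor β, read 8.47, 8.30 and 8.72 in SPTLC123, 8.66, 8.89 and 8.84 in DEGS1, and 8.09, 7.93 and 7.79 in scramble. Both targeting groups lay above scramble, by 0.56 ± 0.13 in SPTLC123 (adjusted p = 0.0445) and 0.86 ± 0.13 in DEGS1 (adjusted p = 0.0103, both limma). TGFB1, the ligand itself, averaged 7.07 ± 0.19 in SPTLC123, 7.15 ± 0.15 in DEGS1 and 6.47 ± 0.21 in scramble, with differences of 0.60 ± 0.14 (adjusted p = 0.0450) and 0.68 ± 0.14 (adjusted p = 0.0350, both limma). Of 17 other settings SMAD3 lost its call in 10 for SPTLC123 and 3 for DEGS1, and TGFB1 in 11 and 9. None of the 3 other SMAD3 probe sets was called, and in DEGS1 1 of them had the same sign. On the second TGFB1 probe set both differences ran the opposite way, uncalled. The 3 arrays with a weak 5′ control were the 3 highest for both SMAD3 and TGFB1. With the actin difference as a covariate SMAD3 changed by 0.49 in SPTLC123 and 0.69 in DEGS1, both called, and TGFB1 by 0.54 in SPTLC123, called, and 0.55 in DEGS1, with an adjusted p of 0.0864 (limma). EGR1, an early growth response factor, averaged 7.26 ± 0.62 in SPTLC123, 7.69 ± 0.79 in DEGS1 and 8.93 ± 0.72 in scramble, and all 6 arrays with a targeting siRNA lay below the scramble arrays. Its differences, the widest in the list, were -1.66 ± 0.48 in SPTLC123 (adjusted p = 0.0984) and -1.23 ± 0.48 in DEGS1 (adjusted p = 0.205, both limma) and were not called. HIF1A, the hypoxia factor, differed by -0.37 ± 0.10 in SPTLC123 without overlap, also uncalled (adjusted p = 0.0952, limma); EGR1 and HIF1A were named after their values were seen.

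Of 13 ligand, receptor and adaptor genes, which included IGF1, the insulin receptor and its substrates, just GRB10 was called. GRB10, an adaptor that dampens insulin and IGF1 receptor signalling, averaged 9.24 ± 0.09 in SPTLC123, 9.15 ± 0.10 in DEGS1 and 8.49 ± 0.32 in scramble. It rose by 0.75 ± 0.15 in SPTLC123 (adjusted p = 0.0240) and by 0.66 ± 0.15 in DEGS1 (adjusted p = 0.0492, both limma), calls lost in 5 and 11 of 17 other settings. Of its 3 other probe sets none was called, and 1 had the same sign in SPTLC123 and 2 in DEGS1.

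None of the 17 IGFBP proteases and their inhibitors was called in any comparison, PAPPA and the matrix metalloproteinases included (limma). Of all genes 2.38% to 3.47% were called in each direction, so 0 of 17 lies near that share. An unadjusted p under 0.05 was found for 3 of them in SPTLC123 against scramble, where 16.2% of all probe sets had one. It was found for 2 in DEGS1 against scramble, where 19.4% of all did, and for 0 in DEGS1 against SPTLC123, where 17.7% did. STC1, ADAM12, MMP1, MMP2, MMP3 and MMP7 had means below the median of all probe sets, where an array compresses a fold change. Among 9 partners of IGFBP3 at the cell surface and inside the cell, RXRA, the retinoid receptor that binds IGFBP3 in the nucleus, rose by 0.73 ± 0.12 in DEGS1 against scramble (adjusted p = 0.0158, limma). That call was lost in 6 of 17 other settings, and the second RXRA probe set differed in the opposite direction, uncalled. The iron carrier TF, which binds IGFBP3 and is also one of the hepatocyte markers above, fell in SPTLC123, with a difference of -0.37 ± 0.08 from scramble (adjusted p = 0.0401, limma) that lost its call in 11 settings.

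In the IGF2 group of 8 genes, PLAGL1, an imprinted zinc-finger factor that binds the IGF2 region in mouse, read 5.29, 5.25 and 5.31 in SPTLC123, 5.75, 6.01 and 5.87 in DEGS1, and 6.04, 6.10 and 6.35 in scramble. Each SPTLC123 array was below every other array. The difference was -0.88 ± 0.11 in SPTLC123 against scramble (adjusted p = 0.00224, limma), called under all 17 other settings. DEGS1 was 0.59 ± 0.11 above SPTLC123 (adjusted p = 0.0178, limma), a call lost in 5 settings. Its other 2 probe sets had the same signs and were not called.

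HMGA2, a chromatin protein that raises IGF2 mRNA-binding protein levels in mouse cells, averaged 11.85 ± 0.07 in DEGS1 and 11.29 ± 0.06 in scramble and rose by 0.56 ± 0.09 (adjusted p = 0.0146, limma), a call lost in 4 settings. None of its 8 other probe sets was called, and 5 of them had the same sign. Among 9 secreted proteins that share the IGFBP domain, CCN2, connective tissue growth factor, averaged 9.80 ± 0.44 in DEGS1 and 11.18 ± 0.16 in scramble. The difference was -1.38 ± 0.27 (adjusted p = 0.0282, limma), lost in 7 settings. The 3 arrays with a weak 5′ control were the 3 lowest for CCN2 and the 3 highest for RXRA. With the actin difference as a covariate the DEGS1 minus scramble change was -0.96 for CCN2 and 0.55 for RXRA, both called. The 6 lists were chosen with results of these arrays known, and their counts are no independent evidence.

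**Figure D5:**
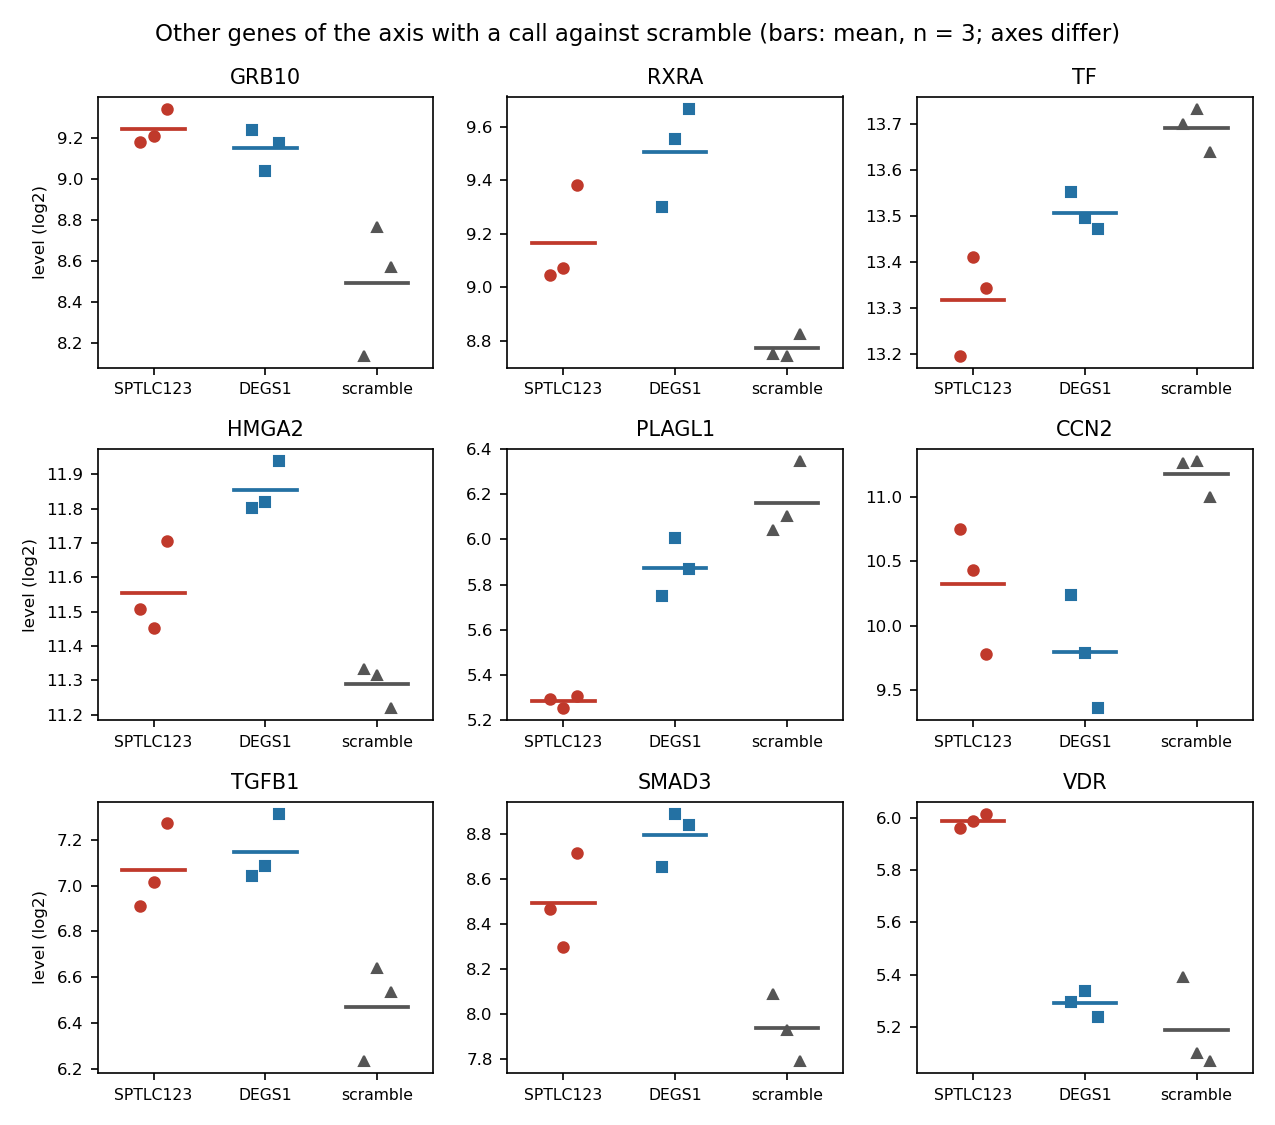
Log2 normalised intensity of the 9 list genes called against scramble in either comparison, by group, each panel with its own axis; points are arrays and bars are means (n = 3). VDR is high in SPTLC123 alone, at 5.96 to 6.02, and PLAGL1 is lowest there, at 5.25 to 5.31.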

How the data were processed

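Each deposited value is a linear intensity per probe set and array that the authors had normalized, from 4.88 to 27330.59. The submitters' processing notes name RMA, GCRMA 2.12.1 and limma 2.14.7 without saying what each was used for; whether RMA or GCRMA made the values is not given in the sources used here. Array medians of 27.82 to 29.93 were taken as already normalized between arrays. No array was a copy of another (0 identical pairs). An array has no read depth; precision is limited by the number of arrays and by signal over background.

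The deposited intensity was turned to log2 with no pseudocount. Of 54675 probe sets 62 Affymetrix controls were set aside; of the rest 41091 had 1 symbol in the platform annotation, 1801 several and 11721 none listed. Symbols checked through RefSeq gene numbers changed in 0 cases. Where a gene stands for its probe sets, the one with the highest mean was used (19775 genes).

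Group means were fitted as a linear model over 54613 probe sets and 9 arrays (limma 3.58.1, R 4.3.3, lmFit and default eBayes, 6 residual degrees of freedom), with two-sided tests adjusted by Benjamini-Hochberg over all of them and called at 0.05. The code was tested on simulated data. Values after ± are the SD for levels and the SE for differences. Alternatives were quantile normalization, median centring, probe sets above the median, 1 probe set a gene, a variance trend with robust eBayes (statmod 1.5.0), the replicate block, the actin 3′ minus 5′ difference as a covariate, the 6 arrays with that difference under 1, and leaving out each array.

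Named were all member probe sets, the 6 genes with the highest r to IGFBP3, its neighbours in rank and on the chromosome, and up to 4 called genes a list by adjusted p. The members, the gene and marker lists and the alternatives were chosen with earlier results of these data known. Same-numbered arrays did not all deviate together: over the 9 pairs the correlation of their deviations from the group means ran from -0.49 to 0.70, with 3 over 0.1. The highest were SPTLC123 with DEGS1 in replicate 3, at 0.70, and in replicate 1, at 0.57. Differently numbered arrays were not compared, so these values do not settle whether the arrays are paired. The main fit did not pair arrays by number, and the replicate block was run as an alternative.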

Additional observations from a re-analysis of the deposited data

Results flagged for a closer look

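Signals outside the gene measurement set 3 arrays apart. The actin control's 3′ minus 5′ log2 difference reached 1.31 and 1.25 in replicates 2 and 3 of DEGS1 and 1.15 in replicate 3 of SPTLC123, where the highest scramble array had 0.56. The GAPDH control gave 0.25 to 0.40 in these 3 arrays and -0.09 to 0.01 in the other 6. Some IGF1R and IGF2R probe sets stood apart in these arrays, and the second IGFBP3 probe set was lower in them within its groups; the values with the actin difference as a covariate are given with these genes.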

How the results depend on the processing

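IGFBP3 kept its direction under all 17 alternatives, at 3.19 to 3.52 in SPTLC123 against scramble and 1.09 to 1.42 in DEGS1 against scramble on its brighter probe set. The DEGS1 call was lost in the 6 arrays with an actin difference under 1, at 1.27, with adjusted p over the alternatives between 0.000831 and 0.120 (limma). With the replicate number as a block its change was 1.29 with an adjusted p of 0.00748 (limma), and the replicate block changed no other call among the members. The other members had 0 calls in SPTLC123 against scramble under every alternative. In DEGS1 against scramble the count of called member probe sets was 1 with 1 probe set a gene, which leaves 1 for IGFBP3, 1 in the 6 arrays, and 1 to 3 with each array left out. In DEGS1 against SPTLC123 it was 0 to 1 with each array left out, for the probe sets other than IGFBP3. The fourth IGF1R probe set by brightness changed direction in the 6 arrays, at 0.29 in DEGS1 against scramble and 0.17 in DEGS1 against SPTLC123; the cause was not tested. Over all 54613 probe sets the calls in DEGS1 against scramble numbered 1869, and 193 in the 6 arrays, 9061 without DEGS1 replicate 1, 491 without DEGS1 replicate 3 and 558 without DEGS1 replicate 2. In DEGS1 against SPTLC123 the 2017 calls became 341 in the 6 arrays and 7151 without DEGS1 replicate 1, and in SPTLC123 against scramble the 2466 calls became 4591 with the covariate and 1166 without SPTLC123 replicate 1. Under each scaling the median difference of all probe sets was within 0.04 of 0 in every comparison. Levels near background limit what IGFBP2, IGFBP5 and the dimmer probe sets of IGFBP1, IGFBP7 and IGF1R can show.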
